A study of Mus musculus with 367 samples.

Results

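The RNA of 9 genes of the S100 family was followed in single cells of mouse skin wounds. The genes were taken by name, not by their values, from the 50600 genes of the files: S100a4, S100a6, S100a10, S100a11, S100a13, S100a16 and S100a1, and the calprotectin pair S100a8 and S100a9. The S100 proteins are small calcium sensors that work mostly as dimers. Each subunit carries EF-hand loops, and calcium opens a surface with which the dimer grips a partner protein such as an annexin or a myosin heavy chain. Some members are also released from cells and act on receptors of neighbouring cells. In skin they are known from keratinocytes, from neutrophils and from S100a4, which under the name fibroblast-specific protein is often used as a fibroblast marker.

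The mice were Sm22-Cre;tdTomato animals of mixed background, 3 to 8 weeks old, with large excisional wounds on the back, and no unwounded or Cre-negative group is analysed here. For wounding, the paper's methods name both sexes and a narrower range of ages within this one. Sm22-Cre is driven by the promoter of Tagln, so tdTomato marks every cell in which that promoter has been active, not 1 cell type. Viable tdTomato-high cells were sorted and captured singly on a C1 chip at post-wounding days 12, 15 and 21, in 3, 2 and 2 captures. Each day pooled the tissue of 2 to 3 mice, and no source says if the captures of a day had separate animals behind them, so p-values measure the spread between captures, which may be technical. The values are FPKM (fragments per kilobase of transcript, scaled to the depth of the cell), computed by the authors with RSEM.

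Of 367 cells, 292 passed the filters, with a median of 958848 to 2358385 estimated fragments per cell in a capture. Both captures of day 15 were the shallowest. Cells were divided by genes outside the family, at cut-offs that sort them by level and not by clustering. Matrix cells had Col1a1 at or above 1000 FPKM (198 cells), mural cells had Rgs5 at or above 500 FPKM (57 cells), and myeloid cells had Tyrobp at or above 500 FPKM (26 cells), while 11 cells were of no kind. Other markers followed the names. The 6 further matrix markers summed to between 17020 and 32550 FPKM per capture in matrix cells, the 7 mural markers to between 1058 and 2083 FPKM in mural cells, and the 6 myeloid markers to between 14750 and 26370 FPKM in myeloid cells. Each kind also held RNA of others. Matrix markers summed to between 3630 and 13050 FPKM in mural cells and to between 68.8 and 10810 FPKM in myeloid cells, which is given again beside the results it moves with. No cells had identical values, the authors used chambers that held 1 cell under the microscope, and no doublet caller was run.

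All 9 genes lie on chromosome 3 of GRCm38. S100a1, on the minus strand at 90511034 to 90514392, and S100a13, on the plus strand at 90514435 to 90524581, are neighbours that start head to head, and their promoter windows share 204 bases. They are followed by S100a16 (90537254 to 90543151), S100a4 (90603771 to 90606045), S100a6 (90612882 to 90624181), S100a8 (90668978 to 90670035) and, on the minus strand, S100a9 (90692632 to 90695721). S100a11 (93520488 to 93526287) and S100a10 (93555080 to 93564643) stand apart from this row as a pair of their own. RefSeq windows from 250 bases before to 50 bases after the start were at hand for 8 of the 9 genes, S100a16 with a pair of them and S100a10 with none.

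The 150 bases before the start are shown for S100a4 and S100a11, the first found in a minority of matrix cells and the second in nearly all of them, and for S100a6 and S100a1, which lay on opposite sides of 0 between myeloid and matrix cells. Bases are those of GRCm38.p6 from RefSeq, 5′ to 3′ on the strand of the gene. Capitals mark TATAAA (the TATA box core), TGANTCA (the AP-1 element) and GGGCGG (the GC box core) on either strand.
S100a4, chr3:90603620-90603769, plus strand: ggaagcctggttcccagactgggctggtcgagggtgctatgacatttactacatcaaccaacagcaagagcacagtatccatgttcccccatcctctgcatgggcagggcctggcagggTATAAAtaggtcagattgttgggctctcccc
S100a11, chr3:93520346-93520495, plus strand: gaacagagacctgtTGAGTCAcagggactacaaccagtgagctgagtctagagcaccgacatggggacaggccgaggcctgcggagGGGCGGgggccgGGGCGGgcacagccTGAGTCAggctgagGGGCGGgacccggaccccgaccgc
S100a6, chr3:90612744-90612893, plus strand: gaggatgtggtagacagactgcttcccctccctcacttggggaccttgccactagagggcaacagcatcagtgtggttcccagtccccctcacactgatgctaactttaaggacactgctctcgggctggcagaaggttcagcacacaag
S100a1, chr3:90514331-90514480, minus strand: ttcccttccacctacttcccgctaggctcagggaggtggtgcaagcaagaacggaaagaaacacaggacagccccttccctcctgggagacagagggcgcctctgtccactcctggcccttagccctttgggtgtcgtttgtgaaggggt

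The S100a4 window held 1 TATAAA, whose first base lies 31 bases before the start. That of S100a11 held no TATAAA but 2 copies of TGANTCA and 3 of GGGCGG. Neither the S100a6 nor the S100a1 stretch held any of the 3 motifs. Over the full windows of 300 bases, TATAAA was also found for S100a8 and S100a9, TGANTCA for 1 of the windows of S100a16, and GGGCGG for that window and S100a9. Of all 32851 RefSeq promoter windows, 13.6% hold TATAAA, 7.81% TGANTCA and 35.7% GGGCGG on either strand, and no binding was measured here.

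S100a6 and S100a11 were found in nearly every fibroblast-type cell, while S100a4 was not. S100a6 (calcyclin) was above 0 in 196 of 198 matrix cells and in 57 of 57 mural cells. S100a11 (calgizzarin), a partner of annexin A1, was above 0 in 197 and 54 of them. S100a10, the light chain that pairs with annexin A2 and is unusual in the family in that it does not bind calcium, was above 0 in 179 matrix and 45 mural cells. S100a4 was above 0 in only 70 of 198 matrix cells, or 35.4%.

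S100a13, which is known to help export growth factors that lack a signal peptide, was above 0 in 156 matrix, 42 mural and 20 myeloid cells. S100a16, a widely expressed member, was above 0 in 113, 12 and 2 cells of these kinds. S100a1, best known from heart and skeletal muscle, was above 0 in 89, 15 and 18. A matrix cell held between 1 and 7 of the 9 genes, with a median of 5, against medians of 5 in mural and 4 in myeloid cells.

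**Figure D1:**
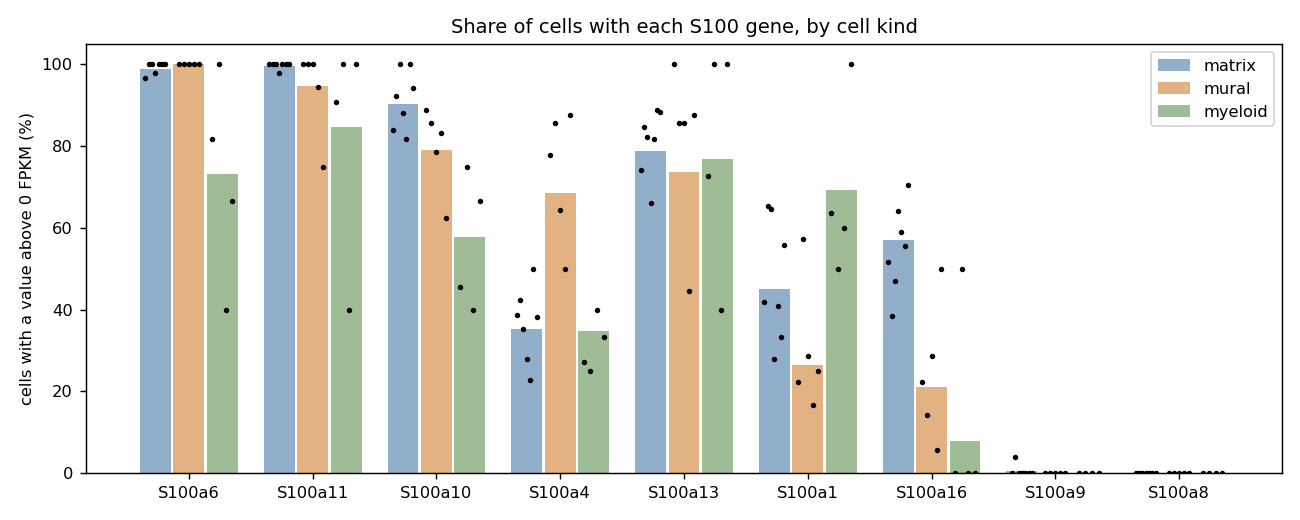
Percent of cells with a value above 0 FPKM (y axis) for each of the 9 S100 genes (x axis) in matrix, mural and myeloid cells. Bars pool the kept cells of a kind (198, 57 and 26) and points are captures with at least 3 cells of the kind. S100a6 and S100a11 are near 100% in matrix and mural cells, the mural bar of S100a4 (68.4%) stands above its matrix bar (35.4%), and S100a8 has no bar.

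By the median capture mean in FPKM, which is per length, the order in matrix cells was S100a6, S100a11, S100a10, S100a4, S100a13, S100a1 and S100a16. The median capture mean was 2032 FPKM for S100a6 (range 1364 to 2458, n = 7 captures) and 1745 FPKM for S100a11 (1050 to 2056), and these ranges overlap. S100a10 followed at 404 FPKM (301 to 534), below both in every capture. S100a4 (median 104 FPKM, range 47.9 to 197), S100a13 (101 FPKM, 87.1 to 128), S100a1 (72.5 FPKM, 38.8 to 90.3) and S100a16 (62.7 FPKM, 47.7 to 137) overlapped one another as neighbours in this order. In mural cells S100a11 (median 2676 FPKM, 1060 to 3726, n = 5 captures) and S100a6 (2323 FPKM, 1871 to 2901) again came first, and S100a4 (356 FPKM, 97.1 to 667) stood beside S100a10 (351 FPKM, 126 to 544).

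The level of S100a4 in matrix cells came from a minority of them. Its median there was 0 FPKM, as was that of S100a1. The matrix cells that held S100a4 had a median of 148 FPKM and the highest reached 1782 FPKM. In mural cells 39 of 57 held it, and the median over all 57 was 181 FPKM. At or above 100 FPKM there were 44 matrix, 32 mural and 6 myeloid cells, and at or above 500 FPKM 14, 13 and 1. Of the 118 cells of the 3 kinds with S100a4, 70 were matrix, 39 mural and 9 myeloid. Depth moved with this within the matrix cells, whose median was 1874191 estimated fragments with S100a4 and 1275055 without, and its part in the share was not tested, since FPKM cannot be thinned to equal counts.

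Mural and matrix cells differed most visibly in S100a4 and S100a16. In captures 1, 2 and 3 of day 12, capture 1 of day 15 and capture 1 of day 21, the captures with at least 3 mural cells, S100a4 had a mean of 485, 342, 356, 667 and 97.1 FPKM in mural cells. In the same captures it had 87.4, 104, 115, 47.9 and 197 FPKM in matrix cells. Mural cells were thus higher in 4 of 5 captures and lower in that of day 21. The mural cells of that capture also held the most matrix RNA, with a mean of 13050 FPKM of matrix markers against 3630 to 5619 FPKM in the other 4. Within it, S100a4 had a mean of 91.8 FPKM in the 4 cells with at least 5000 FPKM of matrix markers and 102 FPKM in the 4 below. The difference in log2(mean FPKM + 1), mural minus matrix, was 1.83 (SE 0.94, 95% interval -0.19 to 3.84, adjusted p = 0.47, limma with the capture as a block). The call depends on how cells are averaged: with the mean over cells of log2(FPKM + 1), where a cell at 0 counts as much as a cell with much RNA, the difference was 3.38 with an adjusted p of 0.0011.

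The share of cells with S100a4 was higher in mural than in matrix cells in 5 of 5 captures. It was 77.8, 85.7, 64.3, 50 and 87.5% of mural cells in these captures and 38.7, 42.3, 35.3, 28.0 and 50% of matrix cells. Pooled over captures, mural cells were the shallower of the 2 kinds, with a median of 1218934 estimated fragments against 1452214. Depth was not compared by kind within a capture, and the deepest capture, capture 2 of day 21, held 34 matrix and 0 mural cells. Over all captures the shares were 39 of 57 mural cells (68.4%) and 70 of 198 matrix cells (35.4%).

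S100a16 ran the other way. Its matrix means in the same 5 captures were 62.7, 49.5, 54.9, 127 and 47.7 FPKM, and its mural means 15.6, 34.8, 11.3, 0.278 and 16.7 FPKM. Mural cells were lower in all 5 captures and the 2 ranges did not overlap. The difference was -2.29 (SE 0.99, 95% interval -4.41 to -0.17), which did not pass at an adjusted p of 0.37. It was above 0 in 12 of 57 mural cells (21.1%) and 113 of 198 matrix cells (57.1%).

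Matrix RNA moved with S100a16 among the mural cells. Of 14 mural cells with at least 5000 FPKM of matrix markers 10 held S100a16, against 2 of the 43 below, and in capture 1 of day 21 these were 4 of 4 and 0 of 4. S100a4 was above 0 in 13 of the 14 and in 26 of the 43 (60.5%), with means of 322 and 482 FPKM. With the 14 cells left out, a comparison chosen after seeing the data, S100a16 differed from matrix cells by -4.49 (adjusted p = 0.034, limma) and passed, and S100a4 differed by 1.82 (adjusted p = 0.32). S100a10 then stood at -1.22 (adjusted p = 0.49) between mural and matrix cells. The 14 cells included most mural cells with S100a16, so a wider gap for that gene follows from the choice and is no separate support. More of all genes also passed in this setting, as counted further below.

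With all mural cells kept, no S100 gene passed between mural and matrix cells. Of the 9 genes, 7 passed the filter on low values and were tested, and S100a8 and S100a9 did not pass it. Of 14022 genes tested by limma, 147 or 1.05% passed (0.713% higher and 0.335% lower in mural cells), and 1703 (12.1%) had an unadjusted p under 0.05, as did S100a11 and S100a16. S100a11 was higher in mural cells in 5 of 5 captures, by 0.59 (SE 0.26, 95% interval 0.03 to 1.14, adjusted p = 0.37). For S100a6 (0.15, 95% interval -1.05 to 1.36), S100a10 (-0.15, -1.13 to 0.83), S100a13 (0.65, -0.55 to 1.86) and S100a1 (-0.61, -2.14 to 0.91) the interval held 0. The median of the 7 differences was 0.15, against -0.25 over all genes tested.

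**Figure D2:**
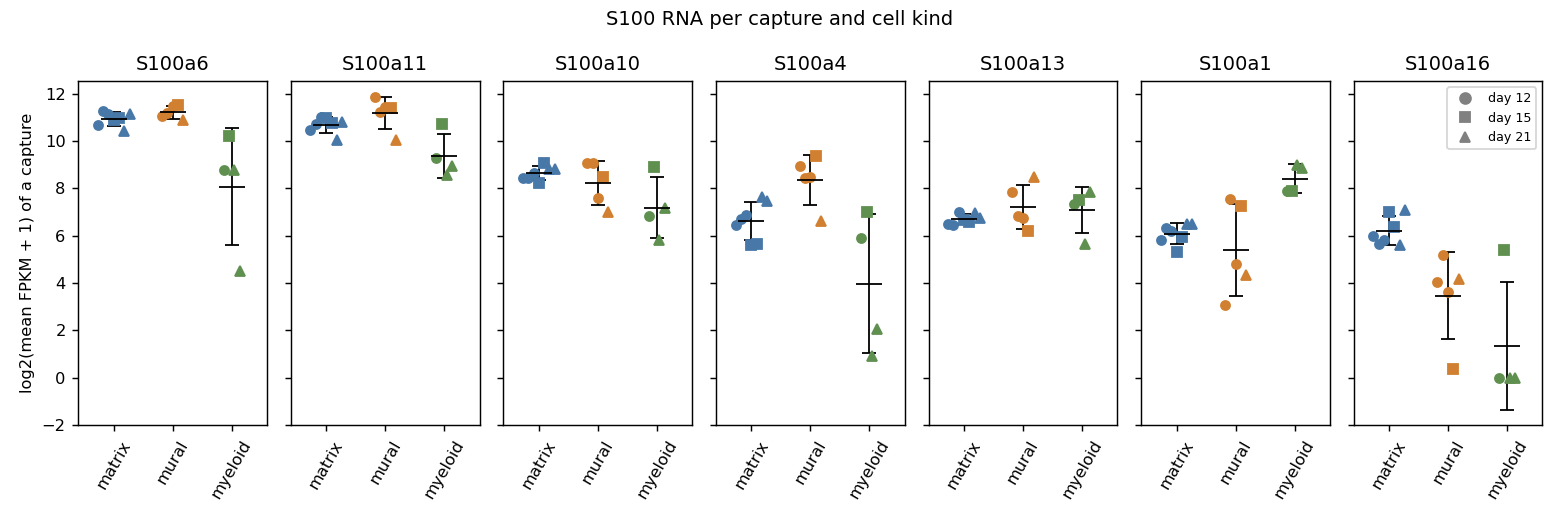
log2(mean FPKM + 1) of each capture (y axis) for 7 S100 genes in matrix (n = 7 captures), mural (n = 5) and myeloid cells (n = 4); marker shapes give the day, and bars the mean and SD over captures. The myeloid captures lie below the others for S100a6, with that of day 15 nearest to them, and above the matrix captures for S100a1, while 3 of 4 myeloid captures are at 0 for S100a16.

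In each of the 4 captures with at least 3 myeloid cells, these had lower means of S100a6, S100a11, S100a10 and S100a16 than matrix cells. The myeloid means rest on few cells: 11 in capture 2 of day 12, 4 in capture 2 of day 15, and 5 and 3 in captures 1 and 2 of day 21. The matrix means of these captures rest on 26, 22, 18 and 34 cells. In capture 2 of day 12, capture 2 of day 15 and captures 1 and 2 of day 21, S100a6 had myeloid means of 433, 1195, 435 and 21.9 FPKM. The matrix cells of these captures had 2458, 2032, 1364 and 2284 FPKM. All 4 myeloid captures were below all matrix captures, and that of day 15 came nearest. The difference, myeloid minus matrix, was -2.78 (SE 0.62, adjusted p = 0.0095, limma), or 6.88-fold lower on the scale of FPKM + 1.

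S100a11 had myeloid means of 629, 1664, 374 and 489 FPKM against 1670, 1745, 1050 and 1807 FPKM in matrix cells. It was lower in 4 of 4 captures, with the day 15 values almost level, and differed by -1.15 (SE 0.28, adjusted p = 0.016, limma). S100a10 had 113, 478, 55.8 and 144 FPKM against 343, 534, 450 and 455 FPKM, a difference of -1.57 (SE 0.50, adjusted p = 0.049, limma), also in 4 of 4 captures.

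S100a16 showed the widest gap. Its RNA was listed at 0 in every myeloid cell of capture 2 of day 12 (11 cells) and of captures 1 and 2 of day 21 (5 and 3 cells). It had a mean of 41.2 FPKM in the 4 myeloid cells of capture 2 of day 15. The matrix cells of these 4 captures, named in the same order, had 49.5, 47.7, 137 and 81.0 FPKM. The difference of -5.32 (SE 1.09, adjusted p = 0.0064, limma) rests on those zeros and so on the pseudocount.

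S100a1 stood on the other side. Its myeloid means were 235, 233, 511 and 467 FPKM, above every matrix mean (38.8 to 90.3 FPKM), and it was above 0 in 18 of 26 myeloid cells (69.2%) against 89 of 198 matrix cells (44.9%). It was higher in 4 of 4 captures, by 2.04 (SE 0.78, 95% interval 0.36 to 3.72), at an adjusted p of 0.092. S100a4 had myeloid means of 58.5, 128, 0.864 and 3.20 FPKM, lower than matrix cells in 3 of 4 captures and higher in that of day 15. Its difference was -2.59 (SE 1.04, adjusted p = 0.10, limma). S100a13 differed by 0.23 (SE 0.62, adjusted p = 0.83, limma).

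Of the 7 S100 genes tested between myeloid and matrix cells, 4 passed and all 4 were lower. Over all genes 15.7% passed, 12.6% as lower and 3.05% as higher. The median of the 7 differences was -1.57, against -0.85 over all genes tested.

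Against mural cells, myeloid cells had less S100a4 (-4.42, SE 1.2, adjusted p = 0.044), S100a6 (-2.93, SE 0.72, adjusted p = 0.028) and S100a11 (-1.74, SE 0.33, adjusted p = 0.0063), by limma. These are 3 of 7, where 6.55% of all genes passed, 4.43% as lower and 2.12% as higher. Only capture 2 of day 12 and capture 1 of day 21 held at least 3 cells of both kinds. All 3 genes were lower in both. S100a1 was higher by 2.65 (95% interval 0.70 to 4.61, adjusted p = 0.10), and S100a16 (-3.03, adjusted p = 0.18), S100a10 (-1.42, adjusted p = 0.18) and S100a13 (-0.42, adjusted p = 0.78) did not pass.

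**Figure D3:**
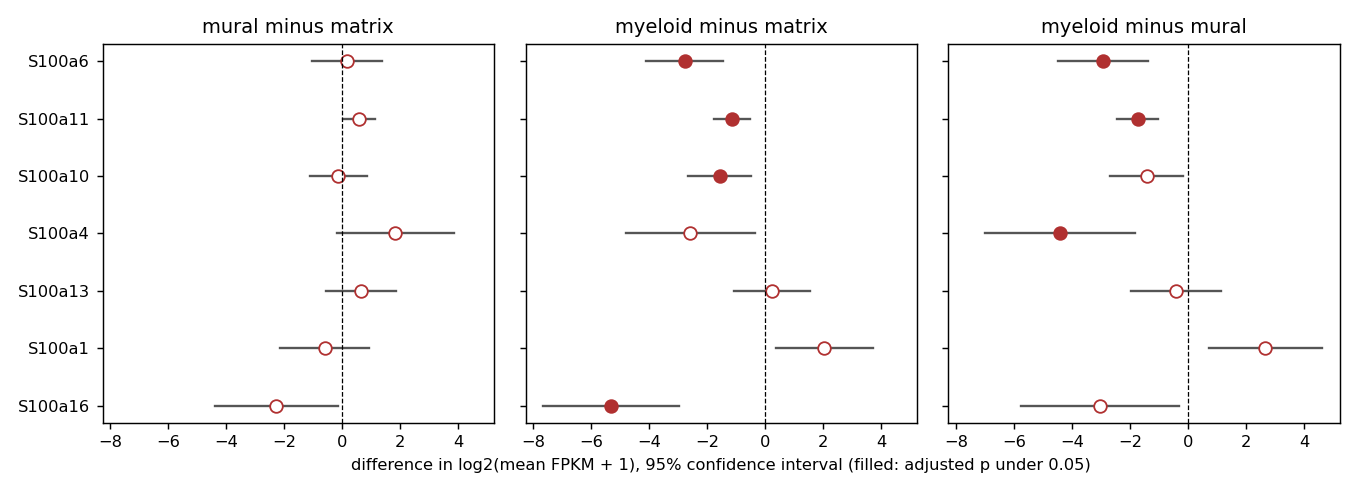
Difference in log2(mean FPKM + 1) between cell kinds for 7 S100 genes (x axis), with 95% confidence intervals from limma; filled points have an adjusted p under 0.05. No point is filled for mural minus matrix, 4 are filled for myeloid minus matrix and 3 for myeloid minus mural, all to the left of 0.

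Matrix RNA moved with the S100 values of myeloid cells. The 6 matrix markers summed to a mean of 673 FPKM in the myeloid cells of capture 2 of day 12, 10810 in capture 2 of day 15, and 3587 and 68.8 in captures 1 and 2 of day 21. The day 15 capture, the highest of these, was also the highest in S100a6, S100a11, S100a10 and S100a16. By cell, 4 of 26 myeloid cells had at least 1000 FPKM of matrix markers, 2 of them from that capture. S100a6 had a mean of 2022 FPKM in these 4 cells and 191 FPKM in the other 22, and S100a11 1887 and 446 FPKM. S100a16 was above 0 in 2 of the 4 cells and 0 of the 22. S100a4 was above 0 in 0 of the 4 and 9 of the 22 cells.

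With the 4 cells left out, a comparison chosen after seeing the data, the differences from matrix cells by limma were -5.61 for S100a6 (adjusted p = 0.00035), -3.66 for S100a11 (0.016), -6.62 for S100a16 (0.0014), -1.96 for S100a10 (0.026) and -3.68 for S100a4 (0.031). S100a1 was at 2.10 (adjusted p = 0.14). The 4 cells were picked by markers that moved with S100a6, S100a11 and S100a16, so wider gaps for these genes follow in part from the choice. Only 3 captures keep 3 myeloid cells then, since that of day 15 drops out. Leaving out capture 2 of day 15 as a whole gave -3.78 for S100a4 against matrix cells (adjusted p = 0.028, limma) and -4.03 for S100a16 against mural cells (adjusted p = 0.049, limma). Its S100a4 difference from matrix cells was 1.38, the only one above 0, and came from 1 of 4 myeloid cells, at 512 FPKM. Its myeloid mean of S100a16 was also the only one above 0. Both settings remove these means, so the wider gaps follow from that removal, and the 2 calls of S100a4 are not separate support.

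The calls differ in how firmly they hold. The 20 alternative settings include those chosen after seeing the data, which left out the myeloid or the mural cells rich in matrix RNA. The lowest adjusted p of S100a16 below, 0.0014, was that without these myeloid cells. The numbers describe how calls moved and are no separate support. Over 20 alternative settings, S100a16 stayed called between myeloid and matrix cells in 20 (adjusted p from 0.0014 to 0.043), S100a6 in 19 (0.00018 to 0.092), S100a11 in 15 (0.0043 to 0.19) and S100a10 in 6 (0.0094 to 0.45). Between myeloid and mural cells these numbers were 17 for S100a11 (0.0014 to 0.14), 12 for S100a6 (0.00051 to 0.20) and 9 for S100a4 (0.00039 to 0.21). Calls were also gained: S100a1 passed against matrix cells in 3 of the 20 (0.022 to 0.32), namely with every deposited cell, with the mean of log2 over cells and without the capture block, and against mural cells in 2 (0.010 to 0.42), the last 2 of these settings. S100a4 passed against matrix cells in 3 (0.028 to 0.39), among them without the myeloid cells rich in matrix RNA and without capture 2 of day 15. The S100a11 call against matrix cells was lost without capture 2 of day 12 (adjusted p = 0.078), capture 1 of day 21 (0.050) or capture 2 of day 21 (0.067), and that against mural cells without capture 2 of day 12 (0.063). S100a10 against matrix cells was lost without any 1 capture other than capture 2 of day 15 (adjusted p 0.059 to 0.15), and so was S100a4 against mural cells (0.076 to 0.14). S100a6 against mural cells was lost without any capture of day 12, capture 1 of day 15 or capture 1 of day 21 (0.051 to 0.094).

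**Figure D4:**
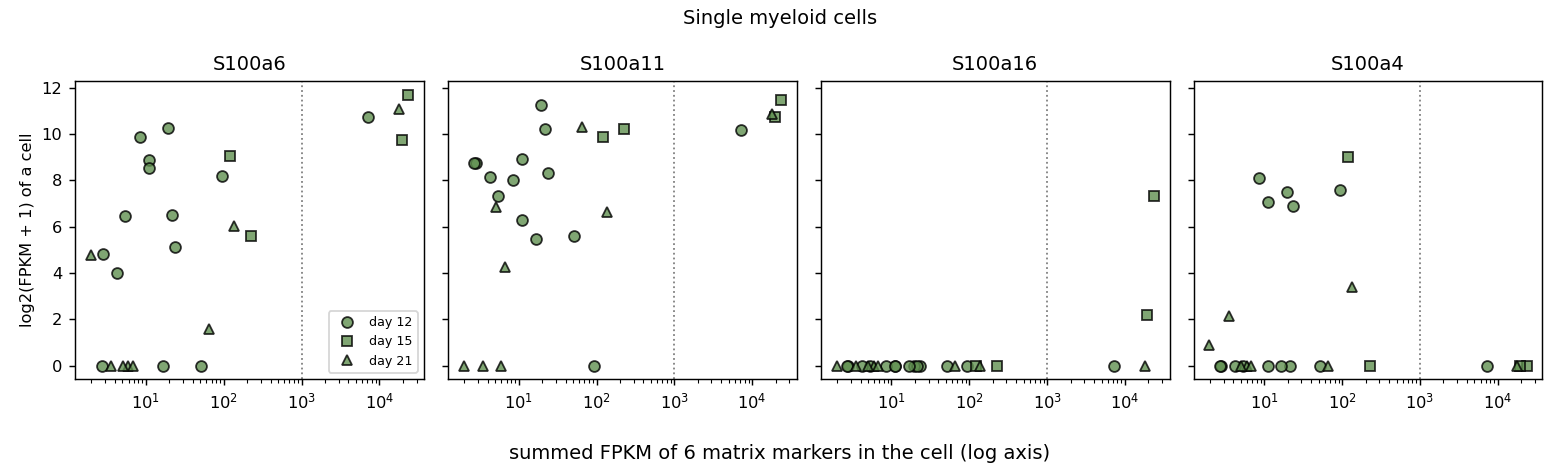
S100a6, S100a11, S100a16 and S100a4 as log2(FPKM + 1) (y axis) in the 26 single myeloid cells, against the summed FPKM of 6 matrix markers in the same cell (x axis, log scale); marker shapes give the day and the dotted line marks 1000 FPKM. The 4 cells to the right of the line all hold S100a6 and S100a11 and none holds S100a4, while the 2 cells with S100a16 are both among them.

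S100a8 and S100a9, which form calprotectin and are abundant in neutrophils and in keratinocytes of wounded skin, were all but missing. S100a8 was listed at 0 in every one of the 367 deposited cells. That leaves room for at most 0.817% of cells, by counting error only. S100a9 was above 0 in 2 cells of capture 2 of day 12, a matrix cell with 322 FPKM and a myeloid cell with 420 FPKM that did not pass the cell filters. No cell held both. Of 7 neutrophil markers, Retnlg, Ly6g, Ngp, Camp and Ltf were at 0 in all 292 kept cells, while Csf3r and Cxcr2 had means of 17.0 and 3.47 FPKM in myeloid cells, and the 4 keratinocyte markers summed to at most 0.232 FPKM in any capture and kind. These transcripts are short. Of 416 protein-coding genes with no transcript over 498 bases, 291 were at 0 in all kept cells and 125 were above 0 in some kept cell. S100a4 is itself one of these short genes, with 498 bases, while S100a11 with 511 and S100a9 with 512 to 519 lie just outside. Longer genes were not counted in this way, so the part of length in the zeros was not tested.

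By day, S100a4 was the S100 gene whose captures did not overlap between any of the days in matrix cells. Its mean was 87.4, 104 and 115 FPKM in captures 1, 2 and 3 of day 12, 47.9 and 48.5 FPKM in captures 1 and 2 of day 15, and 197 and 175 FPKM in captures 1 and 2 of day 21. It was lowest at day 15 and highest at day 21. The share of matrix cells that held it was 39.2, 26.4 and 42.3% at days 12, 15 and 21. Day 21 exceeded day 15 by 1.93 (SE 0.43, 95% interval 0.96 to 2.89), with an unadjusted p of 0.0011 and an adjusted p of 0.65, so that it did not pass. Day 15 minus day 12 was -1.06 (SE 0.40, adjusted p = 0.77) and day 21 minus day 12 was 0.87 (SE 0.40, adjusted p = 0.70), by limma.

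Non-overlap is common with so few captures. All 3 pairs of days were apart for 1 of 8 S100 genes and for 2.97% of all genes tested. For single pairs, 2, 3 and 3 of the 8 genes did not overlap between days 12 and 15, 12 and 21, and 15 and 21, against 21.8, 22.3 and 29.7% of all genes. The captures of day 15, where S100a4 was lowest, were also the shallowest, and its part in the difference was not tested. Over all kept cells of a capture, where the mural cells with their own S100a4 enter, the differences were -0.37, 0.04 and 0.41 for days 15 against 12, 21 against 12 and 21 against 15.

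**Figure D5:**
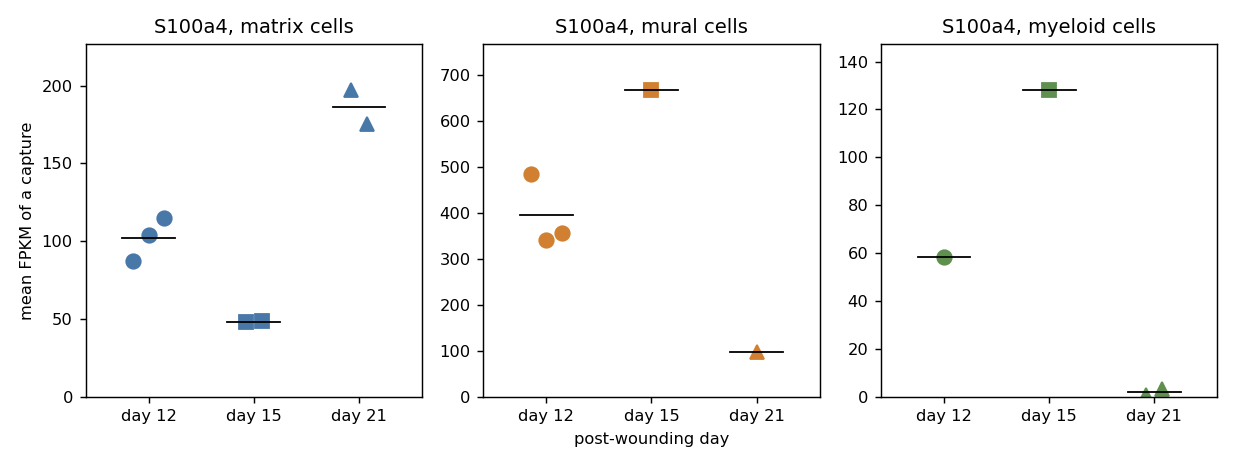
Mean S100a4 FPKM of each capture with at least 3 cells of the kind (y axis, scaled per panel) at post-wounding days 12, 15 and 21 in matrix, mural and myeloid cells; lines are means over captures. In matrix cells the 2 captures of day 15 are lowest and those of day 21 highest, whereas the single mural captures of days 15 and 21 are the highest and lowest of their panel.

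No S100 gene passed between days. Of the 9, 8 were tested, since S100a9 passed the filter through 1 cell and S100a8 did not. Over all 13552 genes, 0.0% passed between days 12 and 15, 0.00738% between days 12 and 21, and 0.0% between days 15 and 21, while 791 (5.84%), 968 (7.14%) and 745 (5.5%) had an unadjusted p under 0.05. S100a4 was among them for the first and the last pair. S100a16 had matrix means of 49.5 to 62.7 FPKM at day 12, 81.0 to 127 FPKM at day 15 and 47.7 to 137 FPKM at day 21, with a difference of 0.86 (95% interval -0.31 to 2.03) between days 15 and 12. S100a6 differed by -0.09 (-0.72 to 0.54) between days 15 and 12 and by -0.25 (-0.88 to 0.39) between days 21 and 12. S100a11 differed by 0.14 (-0.51 to 0.78) and -0.30 (-0.95 to 0.34).

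Mural and myeloid cells were too few to compare between days. S100a4 in mural cells had 667 FPKM in the single capture of day 15 and 97.1 FPKM in that of day 21, the reverse of the order in matrix cells, and in myeloid cells it had 58.5, 128, 0.864 and 3.20 FPKM in the captures of days 12, 15, 21 and 21. In the mural capture of day 15, 9 of 18 cells held S100a4 and the highest reached 3645 FPKM, while at day 21 7 of 8 cells held it, with none above 190 FPKM.

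The genes closest to S100a4 over the 16 means of a capture and kind were Gyg (Pearson r = 0.94), Sp1, Srrm1 and Alg14 (0.93 each) and Cav1 (0.92), among 6778 genes that averaged 10 FPKM or more over these means. Gyg makes the primer of glycogen and Cav1 the coat protein of caveolae. By the median capture both were lowest in myeloid and highest in mural cells. Cav1 had medians of 22.6, 295 and 413 FPKM in myeloid, matrix and mural captures, and Gyg 12.1, 20.7 and 111 FPKM. The captures of the kinds overlapped. Cav1 ran from 0 to 272 FPKM in myeloid, 109 to 360 in matrix and 98.7 to 799 in mural captures. Gyg ran from 0 to 110, 8.07 to 62.2 and 44.8 to 267 FPKM. Within the family, r was 0.86 with S100a11, 0.75 with S100a6, 0.69 with S100a10, 0.40 with S100a16, 0.13 with S100a13 and -0.56 with S100a1. The 16 means share captures and depth, and the values are a description. S100a8 had no variation to correlate.

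Between single cells, Spearman's rho of S100a6 with S100a11 was 0.31 over 198 matrix, 0.28 over 57 mural and 0.63 over 26 myeloid cells. In the myeloid cells it was 0.45 over the 22 with under 1000 FPKM of matrix markers. S100a4 had 0.28 with S100a6 and 0.08 with S100a11 in matrix cells, and 0.37 with S100a11 in mural cells. S100a10 with S100a11 had 0.25 in matrix and 0.45 in mural cells. S100a1 and S100a13, which start head to head, had 0.05, 0.14 and 0.11 in the 3 kinds.

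Of 8 further S100 genes listed, S100a2, S100a5, S100a14, S100g and S100z were at 0 in all cells of the 3 kinds. S100b, known from glia and some antigen-presenting cells, was above 0 in 22 matrix cells, with a mean of 7.44 FPKM over all of them. S100a7a had a mean of 2.71 FPKM in matrix and 1.05 FPKM in mural cells, and S100a3 1.65 FPKM in mural cells. The S100a3 gene model, at 90560578 to 90602702, encloses S100a2 and ends just before S100a4, so its low values are uncertain.

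A list of 22 partners, receptors and other calcium sensors was read beside the family. None of the 21 tested passed between mural and matrix cells, against 1.05% of all genes. Anxa1, the annexin that S100a11 binds, had median capture means of 1926 FPKM in mural, 1019 FPKM in matrix and 240 FPKM in myeloid cells. Anxa2, the partner of S100a10, had 1311, 1313 and 556 FPKM.

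Between myeloid and matrix cells 5 of 21 partners passed, or 23.8%, against 15.7% of all genes. Anxa1 (-2.09, adjusted p = 0.0022), Anxa2 (-1.17, adjusted p = 0.025), Plat (-4.41, adjusted p = 0.0019), which encodes tissue plasminogen activator, and Ppfibp1 (-3.87, adjusted p = 0.0066), a liprin that binds S100a4, were lower by limma. Cd36, a scavenger receptor, was higher (4.84, adjusted p = 0.0054). Anxa1 (-2.78, adjusted p = 0.0010), Plat (-3.46, adjusted p = 0.026) and Cd36 (5.22, adjusted p = 0.013) also passed between myeloid and mural cells. Between days 0 of 19 partners passed by limma, where 0.0, 0.00738 and 0.0% of all genes did for the 3 pairs of days.

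The receptors through which released S100 proteins are known to act were low or uneven. Ager, the receptor for advanced glycation end products, was above 0 in 3 matrix, 2 mural and 0 myeloid cells. Tlr4 was above 0 in 40, 12 and 9 cells, with a median capture mean of 6.79, 0.626 and 6.74 FPKM. Bsg, a receptor reported for S100a9, was above 0 in 191 of 198 matrix cells (180 FPKM) and in 40 mural (109 FPKM) and 17 myeloid cells (95.5 FPKM). Ager, Tlr4 and Bsg did not pass between any of the kinds.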

How the data were processed

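Full-length cDNA from single sorted cells was sequenced as paired ends. The authors aligned reads with Bowtie 1.0.0 to mm10 with GENCODE mouse release 13 and computed FPKM with RSEM. The deposited FPKM hold no counts, so fragments per cell were estimated from the steps between low values, using 9420 genes with a single transcript that is 1000 bases or longer (assumed fragment length 300), and count tests and the SCnorm normalization of the paper were not run. A cell needed 159000 or more estimated fragments, and was left out above 11000 detected genes or above 15% of its FPKM from mitochondrial genes. Matrix cells also had Rgs5 under 100 and Tyrobp under 50 FPKM, and mural cells Tyrobp under 50 FPKM.

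Cells are not replicates. Mean FPKM per capture and kind (at least 3 cells) was compared as log2(mean FPKM + 1) with limma 3.58.1 (variance trend, R 4.3.3) over genes that averaged 1 FPKM or more, between kinds with the capture as a block (16 means) and between days in matrix cells without a block (7 captures). Tests were two-sided, adjusted by Benjamini and Hochberg over all genes tested with a threshold of 0.05. The code was also run on simulated normal values drawn without a capture effect, which does not check the tests on data like these. Fold changes on this scale understate those of low genes. The members, the lists and the rule for named genes (the 9 members, other S100 genes that averaged 1 FPKM or more in some kind, partners that passed plus Anxa1, Anxa2, Ager, Tlr4 and Bsg, and the 5 genes most alike to S100a4) were chosen with earlier results of these data known. Positions are from GENCODE mouse release 21 (GRCm38), which holds 50376 of 50600 gene IDs. Alternatives were the pseudocount, the filters, the cut-offs of the kinds, the averaging, rescaling to 1000000, at least 5 cells, no trend, the block, each capture left out and, chosen after seeing the data, leaving out myeloid cells from 1000 FPKM or mural cells from 5000 FPKM of matrix markers. Intervals and limits cover counting error only where shares of cells are meant. Python 3.11.15, numpy 2.4.6, pandas 2.3.3, scipy 1.17.1 and matplotlib 3.10.9 were used.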

Additional observations from a re-analysis of the deposited data

Results flagged for a closer look

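Among captures of a kind, 2 values stood far from the others by Dixon's ratio, of 22 groups tested, where chance flags about 1 in 20 for evenly spread values. That rate does not apply to these 2, since every other capture was at 0 and any value above 0 is then flagged. S100a9 had a mean of 12.4 FPKM in matrix cells of capture 2 of day 12, from 1 cell, and 0 in the other 6 captures. S100a16 had 41.2 FPKM in myeloid cells of capture 2 of day 15, from 2 of 4 cells that both held at least 1000 FPKM of matrix markers, and 0 in the other 3 captures.

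The difference between kinds had opposite signs at different days for 4 genes, and these differences between days were not tested, since most rest on 1 capture. For S100a4, mural minus matrix was 1.93 on the log2 scale at day 12 (3 captures), 3.77 at day 15 and -1.01 at day 21 (1 capture each). Myeloid minus matrix was -0.82 at day 12, 1.38 at day 15 (1 capture each) and -6.06 at day 21 (2 captures). Mural minus matrix at days 15 and 21, with 1 capture each, was 1.95 and -2.17 for S100a1, 0.22 and -1.83 for S100a10, and -0.47 and 1.52 for S100a13.

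Outside the comparisons, S100b was above 0 in 4 of the 11 cells of no kind. S100a4 was above 0 in all 4 of them, at 36.9, 719, 128 and 319 FPKM. S100a9 had 420 FPKM in the day 12 myeloid cell that the cell filters removed.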

How the results depend on the processing

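Among values of single S100 genes under other settings, 415 kept their direction and their side of the threshold, 42 were no longer past it, 12 passed it newly and 8 changed sign. Those that changed sign were never called (over all single captures left out, S100a10 ran from -0.37 to 0.20, S100a13 from -0.05 to 0.94 between myeloid and matrix cells and from -0.85 to 0.68 between myeloid and mural cells): S100a1 between mural and matrix cells with every deposited cell (0.01), S100a10 between them without capture 3 of day 12 (0.07) or capture 1 of day 21 (0.20), S100a13 between myeloid and matrix cells after rescaling (-0.18), with at least 5 cells (-0.44) or without capture 2 of day 12 (-0.05) or of day 21 (-0.03), and S100a13 between myeloid and mural cells without capture 1 of day 21 (0.68).

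S100 genes called between mural and matrix cells were 0, and 1 with the mean of log2 over cells (S100a4) or without the 14 mural cells rich in matrix RNA (S100a16). Between myeloid and matrix cells they were 4, but 1 without the filter on low values and 2 without the trend, and 2 to 5 without 1 capture. Between myeloid and mural cells they were 3, but 0 without the filter, 0 without the trend and 1 with every deposited cell, and 0 to 4 without 1 capture. Over all genes 1.05, 15.7 and 6.55% passed in these comparisons with the main setting. The numbers over all genes also moved with the setting and follow below, so these counts are not read as results about the S100 genes alone.

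Genes called between mural and matrix cells were 147, but 82 with a pseudocount of 0.1, 48 without the filter, 433 with the mean of log2 over cells, 655 without the 14 mural cells rich in matrix RNA, 252 with no replicate block and 47 to 154 without 1 capture. Between myeloid and matrix cells they were 2200, but 1048 with a pseudocount of 10, 1173 without the filter, 829 with at least 5 cells, 1395 without those 14 mural cells and 1287 to 1951 without 1 capture. Between myeloid and mural cells they were 918, but 530 with a pseudocount of 10, 497 without the filter, 609 with every deposited cell, 2031 with no replicate block, 541 without those 14 mural cells, 1488 without the 4 myeloid cells rich in matrix RNA and 466 to 973 without 1 capture. Between days 12 and 15 they were 0, and 28 with the mean of log2. Between days 12 and 21 the single call became 0 with a pseudocount of 0.1, no filter, lowered upper cut-offs, rescaling, the replicate block, all kept cells, or without 1 capture (0 to 0), 3 with doubled cut-offs and 70 with the mean of log2. Between days 15 and 21 they were 0, and 1 with a pseudocount of 10. Other than by fewer genes or samples, the cause was not tested.

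Capture numbers shared between days gave no sign of pairing, as the deviations of same-numbered captures correlated between -0.007 and 0.025 (6 pairs). With 2 captures at days 15 and 21, the deviations within such a day mirror each other. The 6 pairs are therefore not independent, and the check is weak. With the replicate block on that number S100a4 differed by -0.97, 0.96 and 1.93 between days 15 and 12, 21 and 12, and 21 and 15. Leaving out a capture can leave a day with 1 capture, which is then assumed to vary like the others. Few captures and few myeloid cells limit what could pass.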
